A study of Mus musculus with 3 samples.

Results

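Atretic-type granulosa cells were examined in single-cell RNA-seq libraries of mouse ovary, as the cells that expressed at least 3 of the 5 genes Itih5, Pik3ip1, Ghr, Rnase1 and Ntn4. The cells also had to have no UMI (unique molecular identifier, 1 per captured RNA molecule) of Lum, Pdgfra, Ptprc, Pecam1, Cdh5, Rgs5 or Tnfsf11, and log-normalized values under 1.5 for Dcn and under 2 for Cyp17a1. These limits are aimed at stromal, immune, endothelial and mural vascular cells, strongly steroidogenic theca cells and one other granulosa population, by removing cells with any UMI of the first genes and capping the last 2. The rule selected 1542 of 31776 cells (4.85%, exact binomial 95% interval 4.62 to 5.10%), called members here. Because the members were chosen on these 14 genes, the levels of those genes describe the choice and are no finding.

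Granulosa cells line the ovarian follicle, nourish the oocyte and, under follicle-stimulating hormone, make inhibin and estradiol. Most follicles never ovulate. They regress by atresia, in which granulosa cells stop dividing, lose steroidogenic enzymes and die, while phosphoinositide 3-kinase (PI3K) signaling, which holds the FoxO transcription factors out of the nucleus, declines. Ovulation is triggered in the surviving follicles by luteinizing hormone, for which human chorionic gonadotropin (hCG) is a common substitute.

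The 3 libraries were prepared from whole mouse ovary taken 0, 1 and 6 h following hCG. Each time had 1 library, and no genetic modification is named. The study describes single-cell ovaries from 21-day-old prepubertal Kunming mice at 48 h of stimulation with pregnant mare serum gonadotropin (PMSG), which matches the 0 h library. Whether the 1 h and 6 h animals had the same age and priming, and how many animals entered each library, is not given in the sources used here. The deposited table joins all cells and gives each barcode an ending of 1, 2 or 3, but no source used here ties an ending to a time point. The 3 barcode sets are therefore compared as sets of unknown time. There was 1 set of each kind, so no test between sets was possible, and the intervals below, exact except for pooled ratios, are 95% intervals that cover counting error only.

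The whole table held 240030587 UMIs over 24958 genes, with 500 to 133658 UMIs per cell. Sets 1, 2 and 3 held 10384, 9917 and 11475 cells. Between 27 and 46 barcodes were shared by a pair of sets (112 in all). The barcodes of 5 members also occurred in another set, and 0 barcodes belonged to members in both sets. Members had a median of 6323 UMIs (5766, 6722 and 7046 by set, range 1421 to 89877). Mitochondrial genes took 4.68%, 4.93% and 3.96% of their UMIs in sets 1 to 3. Doublets were not removed. A level below is the count of a gene per 10000 UMIs summed over a class of cells, and values separated by commas are those of sets 1, 2 and 3.

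Sets 1, 2 and 3 held 814, 565 and 163 members, or 7.84% (7.33 to 8.37%), 5.70% (5.25 to 6.17%) and 1.42% (1.21 to 1.65%) of their cells. The share was thus lowest in set 3. The rule gene Itih5 was also lower in set 3 outside the members: stroma-type cells, defined by other genes, held it at 9.16, 10.6 and 2.10. Over all cells within the limits, each of the 5 rule genes was detected least often in set 3. Itih5 was detected in 54.4%, 51.9% and 18.4% of these cells, Pik3ip1 in 36.5%, 19.15% and 15.5%, and Ghr in 31.3%, 28.5% and 7.53%. These cells include the members, so the detection shares are not independent of the member shares. The part of such shifts in the share of members was not tested, so the member shares are given as a description.

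Of the 12606 cells that passed the exclusion limits, 5941 expressed 0 of the 5 rule genes, 3305 expressed 1, 1818 expressed 2, 994 expressed 3, 422 expressed 4 and 126 expressed all 5. The number declined steadily, with no gap at the threshold of 3. Cells with exactly 3 genes made up 13.9%, 9.56% and 2.45% of the cells within the limits, against 19.4%, 19.4% and 7.24% for cells with 2. Among members, 526 (34.1%) carried exactly Itih5, Pik3ip1 and Ghr.

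**Figure D1:**
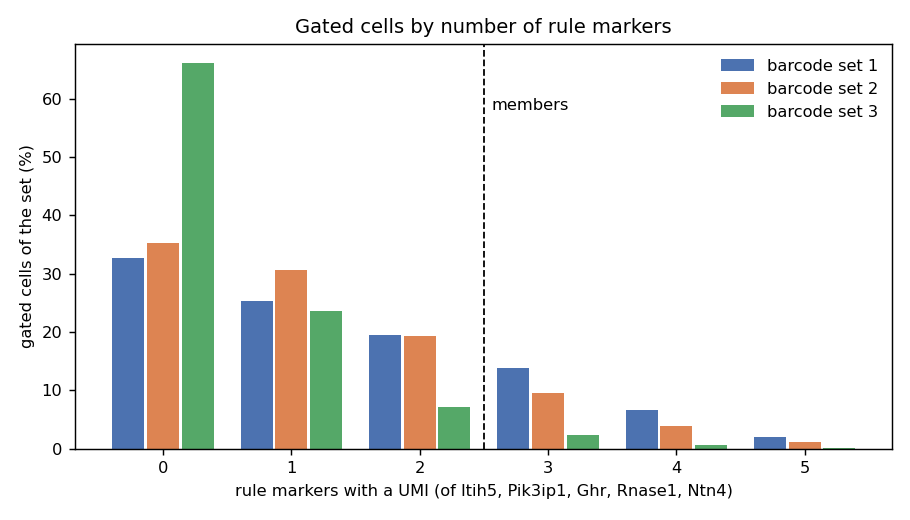
Number of the 5 rule genes with at least 1 UMI (x axis) against the percent of cells within the exclusion limits (y axis) in each barcode set. The share with 0 genes was 32.7%, 35.3% and 66.0% in sets 1 to 3, and it declined from 0 to 5 genes in each set without another peak.

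The rule genes have distinct roles. Itih5 encodes a heavy chain of the inter-alpha-trypsin inhibitor family, which binds hyaluronan, and lies on chromosome 2 at 10153571 to 10256529 of GRCm38 (plus strand). Its level in members was 7.17, 3.82 and 1.89, against 1.58, 1.82 and 0.288 in the other granulosa-type cells described further on (the comparison cells). Pik3ip1 encodes a membrane protein that binds and inhibits PI3K (chromosome 11, 3330401 to 3342971, plus strand). It stood at 4.0, 2.70 and 2.20 in members and at 0.373, 0.164 and 0.243 in the comparison cells.

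Ghr encodes the growth hormone receptor (chromosome 15, 3317760 to 3583492, minus strand), with member levels of 3.03, 2.90 and 1.04. Rnase1 encodes a secreted pancreatic-type ribonuclease (chromosome 14, 51144998 to 51146785, minus strand), with levels of 1.16, 1.74 and 1.07. Ntn4 encodes netrin-4, a basement membrane protein (chromosome 10, 93640681 to 93747207, plus strand), with levels of 0.725, 0.823 and 0.609. All 5 are protein-coding genes on different chromosomes. Itih5 and Pik3ip1 were each detected in 87.6% of members and Ghr in 85.7%, whereas Rnase1 was detected in 47.0% and Ntn4 in 35.7%, so membership rested mainly on the first 3.

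The promoters of the rule genes were read for motifs of factors named in granulosa cells, in the 250 bases before and 50 after each RefSeq start site (GRCm38.p6), on both strands. The FoxO core GTAAACA and the NR5A site AAGGTCA were in 0 of the 6 promoters of these genes, against 3.65% and 4.72% of all 32851 promoters. The AP-1 site TGANTCA was in 1 of the 6, against 7.81% of all. That match lay in a Ghr promoter, 34 bases before the start site, at chr15:3581859-3581887 on the minus strand, and is shown with the matching letters in capitals because it was the only match among the rule genes.
Ghr: tgttggcttccTGAATCAgggtgttgagt
A match of letters is not evidence of binding, and their absence from this window says nothing about the factor elsewhere.

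The granulosa part of the label was checked against 10 general granulosa markers that the rule did not use (Amh, Fst, Gatm, Hsd17b1, Inha, Inhba, Inhbb, Kctd14, Nr5a2 and Serpine2). These markers do not check the atretic part of the name. Lists for processes linked to atresia are counted further on. At least 3 of the 10 were detected in 1306 members (84.7%) and at least 4 in 1056 (68.5%). The other 236 members (15.3%; 17.9%, 11.7% and 14.7% by set) had fewer than 3. They were shallower, with a median of 4752 UMIs against 6718. Their levels also differed from those of the remaining members: Inha, the inhibin alpha subunit and the most abundant of these markers, was 2.29, 4.18 and 4.55 in them and 20.1, 15.2 and 13.3 in the rest. The first values lie below those of endothelial-type cells, so for these 236 cells the granulosa label is not carried by Inha. A UMI of a marker does not by itself mark a granulosa cell. Inha was detected in 63.6%, 71.7% and 44.5% of endothelial-type cells and Serpine2 in 44.0%, 49.9% and 36.8%. Gatm did not mark granulosa cells here. It was detected in 26.7%, 25.0% and 14.8% of endothelial-type cells, 4.47%, 6.35% and 8.37% of the comparison cells and 3.32%, 5.84% and 1.84% of members. How many endothelial-type cells had at least 3 of the 10 was not counted, so the 84.7% has no background share beside it.

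Nr5a2, an orphan nuclear receptor of granulosa and luteal cells, was likewise 1.29, 1.11 and 1.32 in the 236 cells and 8.39, 4.72 and 4.54 in the rest. Inha and Nr5a2 are among the 10 markers, so both contrasts follow in part from the split. Cald1, the actin-binding protein caldesmon, went the other way, at 15.2, 18.5 and 6.70 against 4.55, 8.29 and 2.95. Smooth muscle genes were higher in the 236 cells in set 1, where Acta2 was at 10.9 against 2.504, the actin-binding Tagln at 3.59 against 0.418 and the smooth muscle myosin Myh11 at 1.04 against 0.0270. In set 2 Acta2 was at 5.04 against 4.52, and Tagln and Myh11 were not higher. In set 3 Acta2 was at 2.73 against 1.48 and Tagln at 1.24 against 0.683, with Myh11 at 0 in both. Galnt15 and Angpt2, described below as higher in members, were also higher in the 236 cells, with Galnt15 at 2.13, 1.59 and 1.66 against 0.686, 0.842 and 0.516, and Angpt2 at 2.39, 3.18 and 3.97 against 0.902, 1.40 and 0.906. Foxo1, the FoxO factor most associated with granulosa cells, was at 8.08, 4.71 and 4.55 in the 236 cells and at 9.62, 4.30 and 6.78 in the rest. Foxo1 therefore did not separate the 236 cells in the way Inha did. Leaving out all 236 lowered the share of members in the table to 4.11%.

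Markers of most other ovarian cell types were sparse. The summed level of 7 endothelial markers was 0.114, 0.207 and 0.189 in members, against 42.0, 43.9 and 40.6 in endothelial-type cells, and Pecam1 and Cdh5 were at 0 by the rule. The 8 myeloid markers summed to 0.123 to 0.162, the 5 lymphoid ones to at most 0.0725 and the 7 oocyte ones to at most 0.0180. The 8 stroma markers summed to 1.22, 1.38 and 1.67, against 71.5, 76.0 and 52.9 in stroma-type cells. Lum and Pdgfra were at 0 by the rule, as was the immune gene Ptprc, and Dcn was capped. Endothelial-type cells were chosen on the same 7 endothelial markers, stroma-type cells on Dcn, Lum and Pdgfra, and theca-type cells on Cyp17a1. The contrasts of members with these classes are therefore in part fixed by how the classes were chosen. The 9 pericyte and smooth muscle markers were more abundant, at 4.52, 6.20 and 2.40 against 0.872, 1.63 and 1.27 in the comparison granulosa cells and 19.3, 31.8 and 33.5 in stroma-type cells. Rgs5, the defining pericyte marker, was at 0 by the rule. The 7 theca markers summed to 18.5, 23.1 and 20.3 in members, 51.7, 85.7 and 60.9 in the comparison cells, 160.4, 205.6 and 132.5 in theca-type cells and 15.8, 18.9 and 9.65 in endothelial-type cells. That list holds Hsd3b1 and Fdx1, which granulosa cells also express, while the theca-defining Cyp17a1 was limited by the rule and the theca hormone Insl3 was at most 0.0153 in members. The 5 luteal markers summed to 4.54, 4.99 and 3.85 in members and 9.28, 7.43 and 2.88 in endothelial-type cells.

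Most of that mural signal was Acta2, smooth muscle actin, at 3.49, 4.56 and 1.59 in members and 13.0, 18.3 and 15.7 in stroma-type cells. At least 1 UMI of Acta2, Tagln or Myh11 was present in 828 members and none in 714. With the 714 alone, the share of members in the table was 2.25%. The part of contractile cells, or of their free RNA, in the member values was not tested.

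The members were next compared with 9799 other granulosa-type cells (3134, 3368 and 3297 by set, median 6641 UMIs). These were non-member cells with at least 4 of the 10 general granulosa markers that met the exclusion limits other than that on Tnfsf11. Cells with Tnfsf11 could thus enter this class, whatever their number of rule genes, but could not be members. The part of this difference in the lower genes reported below, which include Comp, was not tested. Those 10 markers were thus used to choose the comparison class, and their ratios are in part fixed by that choice. A gene was counted as higher or lower when its level differed at least 2-fold in the same direction in each of the 3 sets, among the 2962 genes with a level of at least 0.5 in the higher class of each set. Over these genes the median ratio of members to the comparison cells was 0.995, 1.09 and 1.00.

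By this count 45 genes were higher in members (1.52% of those compared) and 32 were lower (1.08%). The 45 include the 5 rule genes, which the rule fixed, and 40 others. Of the 32, Inha was the only general granulosa marker. No p-value is given, since both classes were chosen on measured values of these cells and the labels do not make the 3 sets replicates. Requiring the difference in fewer sets gave more genes, with 103 higher and 85 lower without set 3, the set with the fewest members, 66 and 51 without set 2, and 54 and 66 without set 1. Among only the members with at least 4 general granulosa markers, 28 genes were higher.

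The higher genes outside the rule included secreted and matrix proteins. Galnt15, an enzyme that starts O-linked glycosylation, was at 0.856, 0.902 and 0.616 in members and 0.0643, 0.0820 and 0.0654 in the comparison cells, ratios of 13.3, 11 and 9.42. Angpt2, a ligand of the endothelial receptor Tie2 that loosens vessels, was at 1.08, 1.54 and 1.17, with ratios of 5.20 (4.61 to 5.87), 6.995 (6.25 to 7.83) and 8.93 (7.37 to 10.8). Both genes were above their level in endothelial-type cells, which was at most 0.153 for Galnt15 and 0.504 for Angpt2. In stroma-type cells Galnt15 reached 0.831 in set 2.

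Bmp2, a secreted ligand of the bone morphogenetic protein family, was at 1.93, 1.17 and 1.66 in members, with ratios of 4.56, 2.74 and 9.91. Col11a1, a fibrillar collagen chain, had ratios of 6.13, 3.49 and 6.52, and the matrix metalloproteinase Mmp11, named after its values were seen, had ratios of 2.67, 4.13 and 3.55. Rnase4, a secreted ribonuclease whose gene overlaps that of angiogenin, stood at 1.35, 1.69 and 0.638 with ratios of 9.39, 7.49 and 3.31. Of the 7 ribonuclease A family genes and inhibitor examined, 3 could be compared and 2 were higher, against 1.52% of all genes compared. These were Rnase1, which the rule fixed, and Rnase4.

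Grb14 and Pik3r1 were named after their values were seen. Grb14, an adaptor that inhibits the insulin receptor, was at 25.8, 10.8 and 12.1 in members and 11.2, 3.405 and 4.66 in the comparison cells. Its ratios were 2.29 (2.25 to 2.34), 3.18 (3.07 to 3.29) and 2.60 (2.47 to 2.74), and endothelial-type cells held at most 1.34. Pik3r1, the regulatory subunit of PI3K, was at 9.02, 4.44 and 3.97, with ratios of 2.62, 2.85 and 2.21. Asb4, a substrate adaptor for protein ubiquitination, was at 1.72, 1.54 and 0.529, with ratios of 6.66, 7.74 and 8.05.

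The transcription factors Foxp2 and Mef2c were higher as well. Foxp2 was at 5.50, 3.48 and 1.99, with ratios of 3.28, 3.84 and 3.34 and no more than 0.281 in stroma-type or endothelial-type cells. Mef2c was at 4.04, 2.17 and 1.49, with ratios of 3.07, 3.67 and 3.12, but endothelial-type cells held more of it, at 4.34, 4.09 and 3.47. Over all 45 higher genes, 40 were above the endothelial-type level in each set and 32 were above the stroma-type level in each set, while 6 were below the stroma-type level in each set. Cald1, at 5.80, 9.11 and 3.28 in members, was below the stroma-type level in sets 1 and 3 and below the endothelial-type level in set 3.

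**Figure D2:**
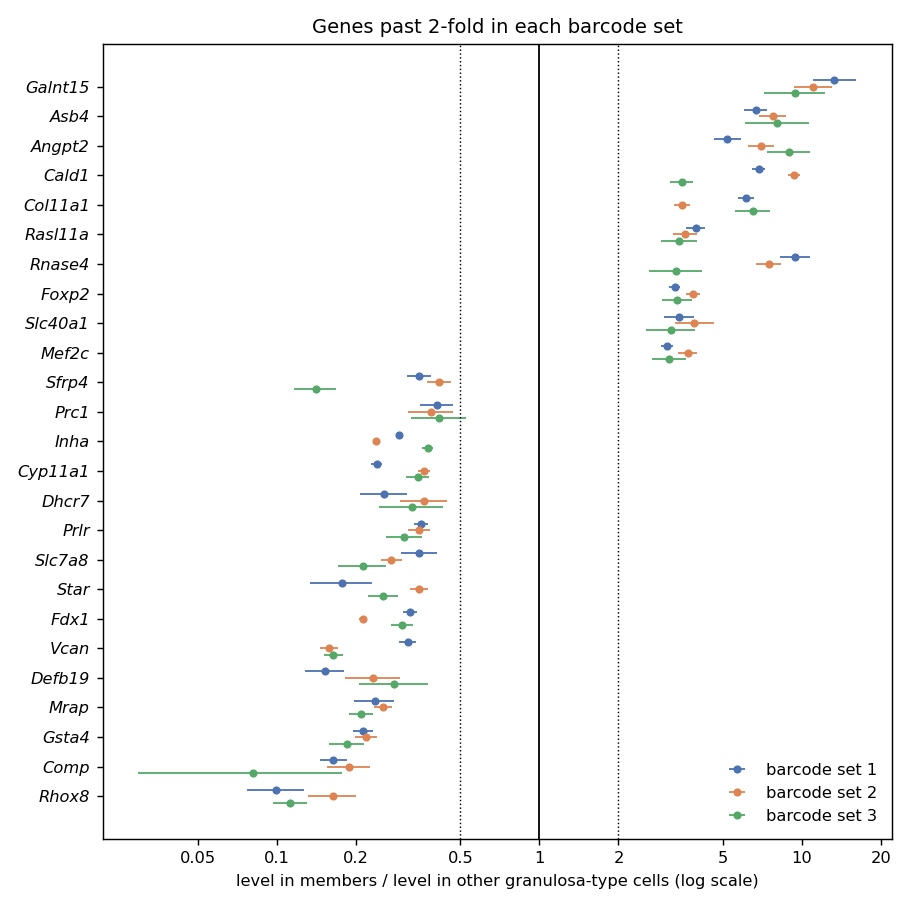
Ratio of the level in members to that in other granulosa-type cells (log axis) for 25 of the genes ranked first in each direction, rule genes left out, in each barcode set, with exact 95% counting intervals; dotted lines mark a 2-fold difference. Galnt15 lies between 9.42 and 13.3, and Inha between 0.237 and 0.376.

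Lower genes included those of steroid production and of the developed follicle. Inha was at 18.0, 14.3 and 12.6 in members and 61.6, 60.4 and 33.4 in the comparison cells, ratios of 0.292 (0.286 to 0.298), 0.237 (0.232 to 0.243) and 0.376 (0.358 to 0.394). Cyp11a1, the enzyme that starts steroid synthesis from cholesterol, had ratios of 0.240, 0.363 and 0.344, Hsd3b1, which acts after it, ratios of 0.228, 0.190 and 0.460, and Star, which carries cholesterol into mitochondria, ratios of 0.177, 0.348 and 0.254. Endothelial-type cells, which do not make steroids, held Cyp11a1 at 7.02, 5.50 and 2.07 against 3.32, 3.31 and 2.88 in members. They held Hsd3b1 at 7.12, 5.10 and 1.37 against 8.04, 4.89 and 5.33. By summed level, both genes were thus at or near background in members in sets 1 and 2. With each cell thinned to 3000 UMIs, Hsd3b1 was detected in 55.3% (51.75 to 58.8%) and 40.3% (36.2 to 44.5%) of members there. In endothelial-type cells it was detected in 36.1% (31.6 to 40.8%) and 31% (27.5 to 34.7%). By detection Hsd3b1 was therefore above the endothelial-type share in both sets. Myeloid-type cells, a small class chosen on Ptprc and other myeloid markers, had it in 44.6% (31.3 to 58.5%) and 32.5% (22.2 to 44.1%). Those intervals overlap the ones of members, so the reading depends on the class taken as background. Cyp11a1 was not above the endothelial-type share, at 28.2% and 16.9% of members against 29.2% and 19.15% of endothelial-type cells.

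Fdx1, the ferredoxin that feeds electrons to Cyp11a1, was at 2.09, 9.79 and 2.89 in members against 6.50, 46.1 and 9.64. Prlr, the prolactin receptor, had ratios of 0.354, 0.348 and 0.305, and Socs2, an inhibitor of growth hormone signaling, was at 3.85, 4.11 and 2.88 against 10.97, 9.31 and 9.88. Vcan, a large hyaluronan-binding proteoglycan, was at 1.35, 1.43 and 4.24 against 4.30, 9.06 and 25.9. Rhox8, a homeobox gene of the reproductive tract, had the lowest ratios of set 1 among the 15 lower genes ranked first, at 0.0993, 0.163 and 0.112. Of the 32 lower genes, 7 were at or below the endothelial-type level in members in each set. For genes that endothelial-type cells do not express, free RNA can give the same UMIs and no expression can be read. Some of the 7, such as the cytokinesis gene Prc1, can be expressed by endothelial-type cells themselves. For those genes that level is no measure of free RNA.

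Granulosa genes that remained above background in members were a mixed group. Serpine2, a protease inhibitor, was at 10.7, 7.46 and 7.60 against 2.40, 2.26 and 1.87 in endothelial-type cells. Nr5a2 was at 7.56, 4.42 and 4.25 against 1.14, 1.35 and 0.325. Fst, the activin antagonist follistatin, was at 4.87, 4.62 and 2.16 against 1.26, 1.54 and 0.305. Esr2, the estrogen receptor beta, was at 1.48, 0.760 and 0.841, and Foxl2, which maintains granulosa identity, at 1.42, 1.38 and 1.06. Each of these was several times its endothelial-type level in all sets except Foxl2 in set 1, where that level was 0.5998.

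Fshr, the receptor for follicle-stimulating hormone, was at 0.609, 0.355 and 0.210 in members, 0.9498, 0.616 and 0.296 in other granulosa-type cells and 0.0934, 0.0659 and 0.0358 in endothelial-type cells. The ratio pooled over sets (Mantel-Haenszel, with a normal approximation on the log scale for its interval) was 0.624 (0.571 to 0.683). In set 3 alone the interval, 0.473 to 1.03, included 1. Fosl2, the AP-1 subunit at the center of the study, was at 2.11, 4.25 and 1.44 in members and 2.83, 4.52 and 1.37 in the comparison cells, a pooled ratio of 0.866 (0.835 to 0.898). By set the ratio was 0.746 (0.702 to 0.793), 0.940 (0.895 to 0.987) and 1.05 (0.906 to 1.21), so it was above 1 in set 3 with an interval that includes 1. Its endothelial-type level was 1.41, 2.39 and 0.859, less than the member level in each set.

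Several other granulosa genes were at or near background in members, depending on the set. Inhba, the activin and inhibin beta A subunit, was at 2.20, 4.66 and 1.59 in members and 3.53, 3.86 and 0.259 in endothelial-type cells, so only set 3 stood clearly above. In the comparison cells it was at 34.5, 37.7 and 2.83. Lhcgr, the receptor that hCG binds, was at 0.362, 0.369 and 0.0797 in members and 1.04, 0.565 and 0.0303 in endothelial-type cells. Cyp19a1, the aromatase that makes estradiol, was at 0.145, 1.01 and 0.00725 against 0.201, 0.518 and 0.00275 in endothelial-type cells, and was above background in set 2. There it was detected in 15.7% (12.7 to 18.9%) of members and 8.36% (6.36 to 10.7%) of endothelial-type cells at 3000 UMIs per cell (25.0% and 14.5% before thinning). For Lhcgr the members lay below the endothelial-type level in sets 1 and 2.

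**Figure D3:**
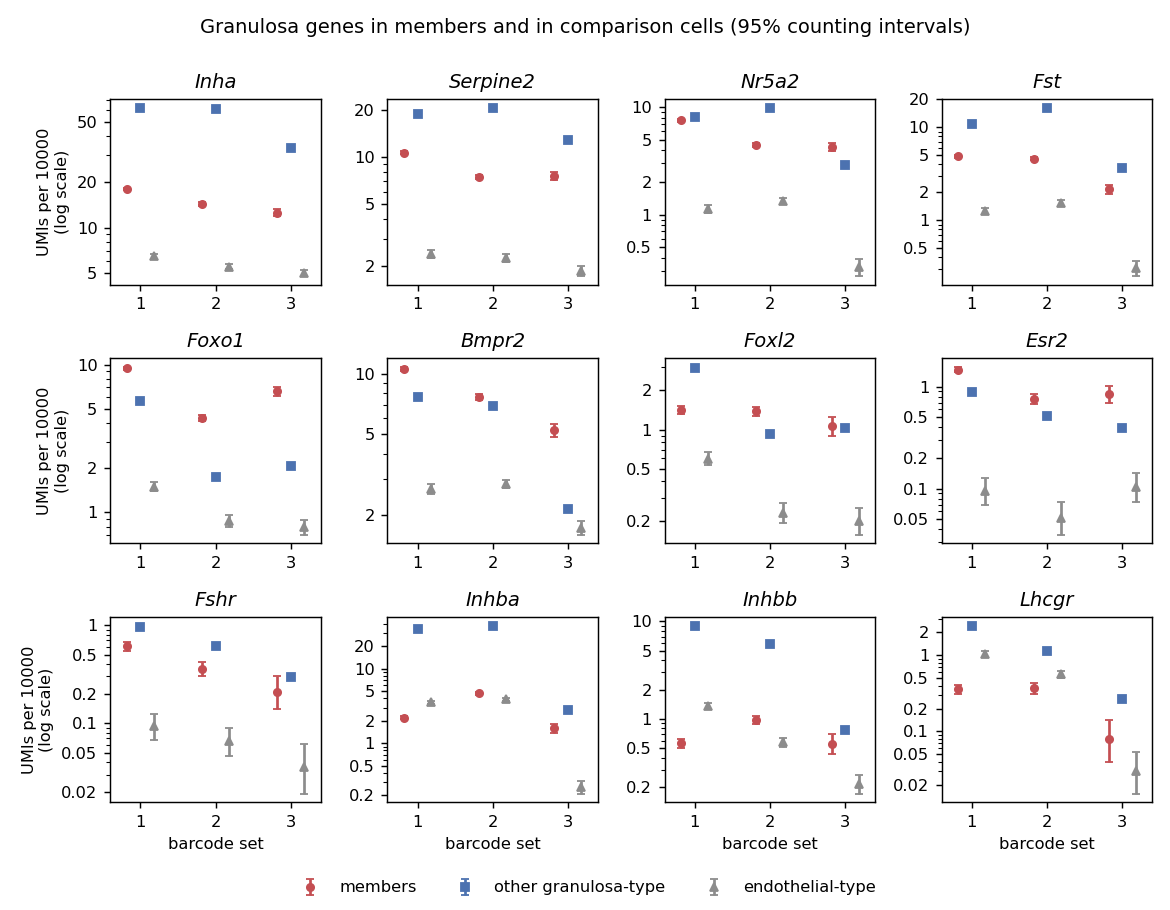
Levels (UMIs per 10000, log axis) of 12 granulosa genes in members, other granulosa-type cells and endothelial-type cells for each barcode set, with exact 95% counting intervals. Nr5a2, Foxo1 and Esr2 in members lie above the endothelial-type values in each set, whereas Lhcgr in members lies below them in sets 1 and 2.

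The same genes were read as shares of cells after each cell was thinned to 3000 UMIs, which left out 45 members, 405 comparison cells and 303 endothelial-type cells. Inha was then detected in 77.2%, 77.2% and 76.9% of members (86.6%, 90.8% and 90.2% unthinned), 97.1%, 98.0% and 98.1% of the comparison cells and 39.7%, 48.9% and 28.8% of endothelial-type cells. Foxo1 was detected in 86.6%, 57.9% and 75.0% of members (94.7%, 77.3% and 86.5% unthinned), 74.2%, 32.4% and 34.3% of the comparison cells and 29.0%, 22.8% and 17.4% of endothelial-type cells. Inhba was detected in 21.1%, 34.7% and 11.3% of members (36.9%, 58.8% and 23.3% unthinned) and in 17.1%, 28.1% and 4.22% of endothelial-type cells. Inha and Foxo1 thus lay on opposite sides of the comparison cells at equal depth.

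Detection of the higher genes was partial. Grb14 was found in 97.6%, 84.7% and 83.1% of thinned members (98.9%, 93.8% and 95.7% unthinned) and in 80.0%, 50.4% and 58.1% of the comparison cells, against at most 17.4% of endothelial-type cells. Bmp2 was found in 39.7%, 23.6% and 43.1% of thinned members (57.99%, 37.3% and 58.9% unthinned), against 10.96%, 12.01% and 9.93% of endothelial-type cells. Angpt2 was found in 26.1%, 30.9% and 23.1% (37.6%, 45.0% and 39.9% unthinned), against at most 6.62%. Only Grb14 of these 3 was present in most members at this depth.

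Lists of genes for processes linked to atresia were then counted. Of 18 FoxO factors and known targets, 10 could be compared, 1 was higher (Pik3ip1, a rule gene) and 0 were lower, against 1.52% higher and 1.08% lower over all genes compared. The median ratios were 1.90, 1.79 and 1.99, against 0.995, 1.09 and 1.00 over all genes compared. Without Pik3ip1, 9 were compared, 0 were called, and the medians were 1.75, 1.75 and 1.90. Foxo1 itself was at 9.44, 4.33 and 6.58 in members and 5.64, 1.75 and 2.06 in the comparison cells. Its ratios of 1.67, 2.48 and 3.19 passed 2-fold in sets 2 and 3. Txnip, an inhibitor of thioredoxin, had ratios of 1.75, 2.99 and 2.07, and Fbxo32, a ubiquitin ligase subunit of atrophy programs, 2.75, 3.90 and 1.79. Pdk4, which switches cells away from glucose oxidation, had ratios of 3.68, 2.91 and 2.68 but was too low in set 3 to be compared. These 4 genes had ratios above 1 in every set without meeting the count in all 3. Others on the list did not: Cited2, a transcriptional coregulator, had ratios of 1.55, 0.629 and 0.742, and Ccng2, an atypical cyclin, 0.959, 0.293 and 1.05.

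Of 28 apoptosis genes, 6 were high enough to compare and 0 were called, a count that says little about so few genes when 1.52% and 1.08% of all genes were called, and the median ratios were 1.01, 1.01 and 1.06. Bax, which permeabilizes mitochondria, was at 2.94, 2.93 and 4.43 in members and 3.09, 2.43 and 3.75 in the comparison cells. Bbc3, an initiator of apoptosis, was at 0.257, 0.423 and 0.210 against 0.0903, 0.188 and 0.134, but endothelial-type cells held 0.396, 0.371 and 0.349. Of p53 and its targets, 6 of 14 could be compared and 0 were called in either direction, with median ratios of 1.70, 1.20 and 1.35. Trp53inp1, a p53-induced autophagy protein, was among them, at 1.38, 1.32 and 0.558 against 0.692, 0.944 and 0.286.

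Of 24 autophagy and lysosome genes, 17 could be compared and 0 were called, against 1.52% higher and 1.08% lower over all genes compared. At those shares a count of 0 says little. The median ratios of the 17 genes were 1.03, 1.20 and 1.10. The cathepsin Ctsl, a lysosomal protease, was the most abundant, at 66.0, 55.1 and 23.2 in members and 27.2, 40.1 and 29.9 in the comparison cells. Its ratio was above 1 in sets 1 and 2 and below 1 in set 3. Of 15 genes for the uptake of dead cells, 8 could be compared and 0 were called, with median ratios of 1.22, 1.15 and 1.01. The summed level of the 15 was 11.6, 11.5 and 10.7 in members and 11.4, 12.1 and 11.3 in the comparison cells. Elmo1, which activates Rac1 during engulfment, was at 0.893, 1.00 and 0.877 against 0.374, 0.559 and 0.185, with ratios of 2.39, 1.79 and 4.74.

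Of 18 cell cycle genes, 6 could be compared and 0 were called, with median ratios of 0.490, 0.613 and 0.710. Over all genes compared, 1.52% were higher and 1.08% lower, so a count of 0 among so few genes says little. Top2a, a topoisomerase of dividing cells, was at 0.604, 0.466 and 1.44 against 1.60, 1.05 and 2.02, and Mki67, a marker of cycling cells, at 0.247, 0.1799 and 0.312 against 0.670, 0.341 and 0.581. Mki67 was too low in set 2 to be compared. Prc1, a cytokinesis gene outside the list, was among the 32 lower genes, at 0.359, 0.245 and 0.529 against 0.885, 0.636 and 1.27, and below its endothelial-type level of 1.13, 0.820 and 0.853. Ccnd2, the cyclin that drives granulosa cell division, was at 1.37, 2.10 and 1.41 against 3.83, 3.21 and 1.995. The levels of Top2a, Mki67 and Ccnd2 were below those of the comparison cells in each set, but not by 2-fold in every set. The member levels of Mki67 and Top2a were also below those of endothelial-type cells.

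For the follicle-stimulating hormone and estradiol list, 10 of 14 could be compared, 0 were higher and 4 were lower (Cyp11a1, Hsd3b1, Star and Inha), against 1.08% lower over all genes compared. Inha is among the markers that chose the comparison cells. For 12 granulosa transcription factors and receptors, 8 could be compared and 0 were called, with median ratios of 0.825, 1.25 and 1.27. The growth hormone and insulin-like growth factor list had 5 of 15 compared, with Ghr, fixed by the rule, higher and Socs2 lower. Igf1r, the receptor for insulin-like growth factor 1, was at 3.45, 3.08 and 1.27 against 1.57, 3.01 and 1.41, so it differed in set 1 alone. The TGF-beta superfamily list had 9 of 21 compared, with 1 higher (Bmp2) and 0 lower. Over all genes compared, 1.52% were higher and 1.08% lower. Bmpr2, a receptor of that family, was at 10.6, 7.65 and 5.26 in members against 7.62, 6.89 and 2.14.

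Immediate early genes can be raised by tissue dissociation, and these moved modestly with membership. All 8 dissociation-response genes could be compared and 0 were called, against 1.52% higher and 1.08% lower over all genes compared. The median ratios of the 8 genes were 1.58, 1.69 and 1.34. Their summed level was 61.4, 86.4 and 68.7 in members, 39.8, 60.4 and 54.0 in the comparison cells and 68.3, 60.7 and 59.5 in stroma-type cells. Fos, an AP-1 subunit, was at 21.8, 28.4 and 23.4 against 13.6, 16.1 and 17.4. The part of dissociation in the differences above was not tested.

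Many differences followed the number of rule genes, across the whole range of cells within the limits, as a description that shares its cells with the rule. In set 1, Inha went from 53.4 in cells with 0 rule genes to 25.1 with 2, 21.9 with 3 and 14.1 with 4. In set 2 it went from 66.5 to 30.1, 16.7 and 10.2. In set 3 it went from 34.6 to 17.3 and 12.6, and was at 14.8 with 4. Inha thus differed little across the threshold in set 1, between cells just outside and just inside it. Foxo1 went the other way, from 3.87 with 0 to 6.15 with 2, 9.16 with 3 and 9.64 with 4 in set 1, and from 1.27 to 4.61, 6.40 and 7.71 in set 3.

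Grb14 was higher at each of these steps in each set, going from 7.19 with 0 to 17.6 with 2 and 25.3 with 3 in set 1, from 1.87 to 6.44 and 9.69 in set 2, and from 4.09 to 8.16 and 11.7 in set 3. Hsd3b1 in set 1 went from 39.5 with 0 to 18.3 with 2 and 9.90 with 3. Fosl2 differed little over the same range, at 2.66, 2.15 and 2.05 in set 1 and 4.06, 4.55 and 4.26 in set 2. Median depth also moved with the number of rule genes. Set 1 had median depths of 5494, 5608, 5336, 5474 and 6060 UMIs for cells with 0 to 4 genes. Set 2 had 6209, 6342, 6335, 6516 and 6833. Set 3 had 5945, 6633, 6836, 7053 and 5289. Cells within the limits were also not all granulosa-type. Set 3 held 5153 of them, against 3297 other granulosa-type cells and 163 members. Acta2 in set 3 was at 1.64, 5.05 and 6.52 with 0, 1 and 2 rule genes and at 1.57 with 3. The part of depth, or of the mix of cells, in these gradients was not tested.

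**Figure D4:**
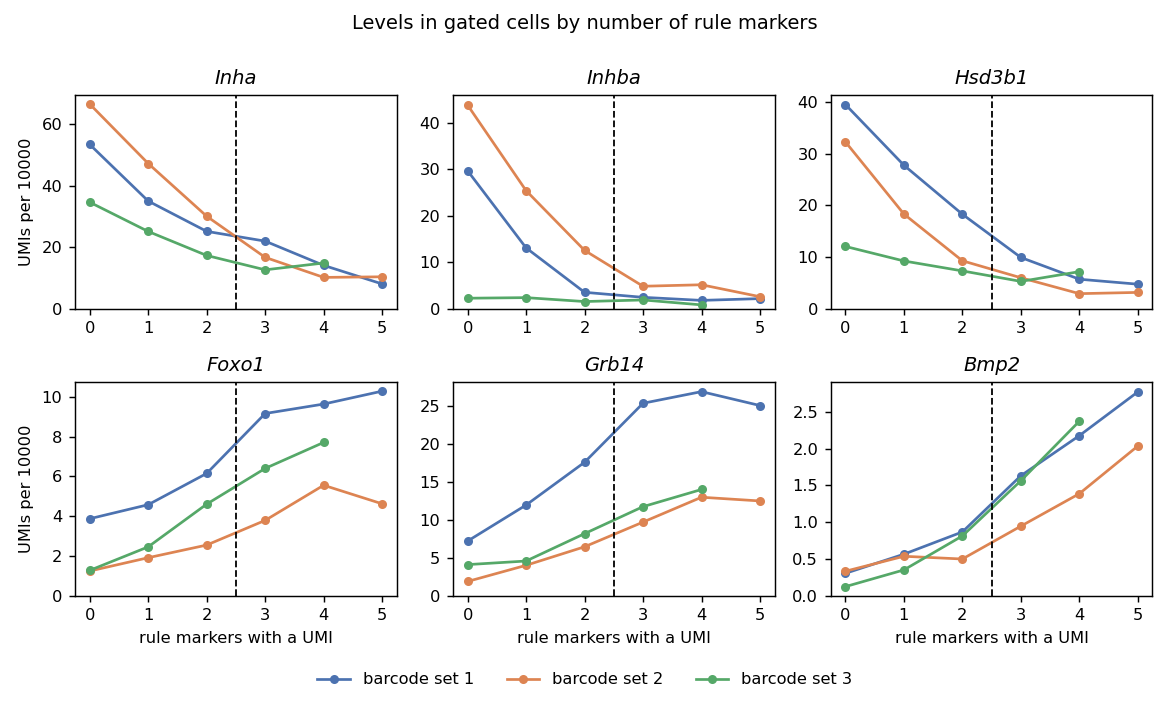
Levels (UMIs per 10000) of 6 genes by the number of rule genes detected in a cell (x axis), with a line for each barcode set and a dashed line at the threshold, and the 6 cells of set 3 with all 5 genes not drawn. In set 1 Inha declines from 53.4 with 0 genes to 14.1 with 4, while Grb14 climbs from 7.19 to 26.9.

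Within members, set 2 was compared with set 1 on 3686 genes with a level of at least 0.5 in either set. At least 2-fold higher in set 2 were 139 genes (3.77%) and at least 2-fold lower were 81 (2.20%), with a median ratio of 0.929 over all genes compared. The higher genes were mainly ones that also differed in the comparison cells, since 116 of the 139 (83.5%) were among the 263 genes higher in set 2 in those cells (44.1% of the 263). Both classes come from the same pair of barcode sets, so this overlap is no independent support. In set 2, 29 of the 139 were at or below the endothelial-type level.

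Pde10a, a phosphodiesterase that degrades cyclic nucleotides, was at 0.214 in set 1, 11.8 in set 2 and 0.254 in set 3, where endothelial-type cells held 0.195, 2.30 and 0.176. Its ratio of set 2 to set 1 was 54.96 (46.1 to 66.1) in members and 201 (175 to 233) in the comparison cells. Tnfaip6, which links hyaluronan in the expanding cumulus, was at 0.0238, 2.22 and 0.334 in members and 0.00894, 7.49 and 2.06 in the comparison cells. Nr4a2, an orphan nuclear receptor of the immediate early kind, was at 0.223, 2.33 and 0.152, with more in set 2 in members than in the comparison cells, which held 1.33. Endothelial-type cells held 0.551 of it in set 2. Each of these genes was highest in set 2.

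Cebpb, a transcription factor of the ovulatory response, was at 3.28, 15.4 and 2.17 in members and 3.49, 15.5 and 6.45 in the comparison cells. Runx1, another such factor, was at 0.929, 2.89 and 2.40 in members and 0.635, 3.47 and 6.31 in the comparison cells. Cebpb was near the comparison cells in sets 1 and 2, whereas Runx1 had ratios of 1.46 (1.32 to 1.61) and 0.834 (0.786 to 0.884) there. In set 3 members held less of both genes, with ratios of 0.336 (0.299 to 0.377) for Cebpb and 0.380 (0.340 to 0.424) for Runx1. Areg and Ereg, ligands of the epidermal growth factor receptor, reached 1.60 and 1.13 in members in set 2. Endothelial-type cells held 1.61 and 1.34 there, so these values were read as background, whereas the comparison cells held 12.9 and 12.1.

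Genes lower in set 2 included Cnmd, the angiogenesis inhibitor chondromodulin, at 3.18, 0.756 and 1.20. Grem1, an antagonist of bone morphogenetic proteins, was at 1.84, 0.571 and 0.276. Ddit4l, an inhibitor of mTOR signaling, was at 6.13, 1.99 and 3.78 in members, a ratio of set 2 to set 1 of 0.324 (0.301 to 0.349), and at 3.51, 5.66 and 0.952 in the comparison cells, a ratio of 1.61 (1.57 to 1.66). Ddit4l was therefore lower in set 2 than in set 1 in members and higher in the comparison cells.

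Set 3 was compared with set 2 on 3701 genes. At least 2-fold higher in set 3 were 104 genes (2.81%) and at least 2-fold lower were 183 (4.94%), with a median ratio of 1.07. The 163 members of set 3 give wide intervals, and the counts depended on the cells kept, with 203 and 219 higher genes when members were limited to those without contractile genes and to those with at least 4 rule genes. Isyna1, which makes inositol from glucose, was at 0.873, 1.25 and 5.95 in members, a ratio of set 3 to set 2 of 4.76 (4.27 to 5.31), and at 1.66 in endothelial-type cells of set 3. Spp1, the secreted matrix protein osteopontin, was at 0.235, 0.0540 and 2.13, against 0.347 in endothelial-type cells of set 3.

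Some genes higher in set 3 were below the endothelial-type level there. Nts, the peptide neurotensin, reached 2.98 in members, 3.76 in endothelial-type cells and 26.3 in the comparison cells of set 3, and Sult1e1, which inactivates estrogens, reached 1.46, 2.33 and 20.2. Timp1, a metalloproteinase inhibitor, reached 1.69 in members and 6.15 in endothelial-type cells. Prss35, a secreted protease-like protein, was above that level, at 1.04 against 0.314, and Msmo1, an enzyme of sterol synthesis, at 2.67 against 1.87. Of the 12 genes with the lowest ratio of set 3 to set 2, Pde10a, F3, Srxn1, Enc1, Nr4a2, Nr4a3, Mpp7, Crem and Areg were also among the 12 with the highest ratio of set 2 to set 1, and both contrasts share set 2.

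**Figure D5:**
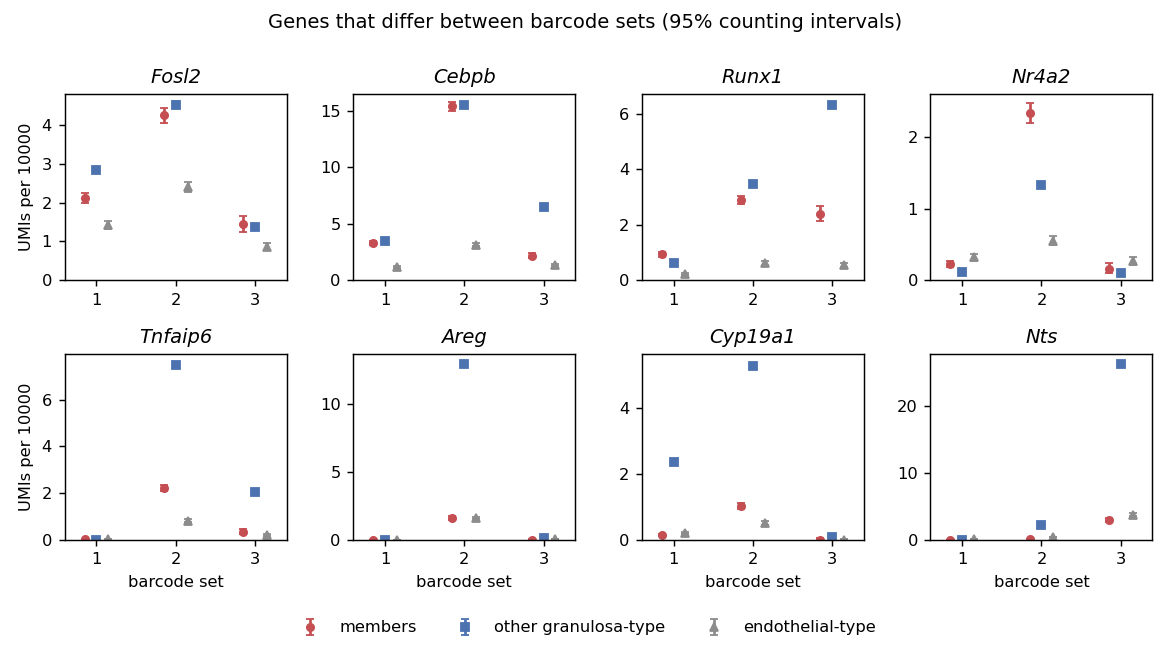
Levels (UMIs per 10000) of 8 genes by barcode set in members, other granulosa-type cells and endothelial-type cells, with exact 95% counting intervals. Nr4a2 in set 2 is higher in members (2.33) than in the other granulosa-type cells (1.33), whereas Areg in set 2 is near the endothelial-type value in members (1.60 against 1.61).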

How the data were processed

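Whole-ovary single-cell libraries were analysed from 1 deposited table of all cells, whose natural log values the authors deposited as ln(1 + UMIs per 10000). The labels name Cell Ranger, Seurat and mm10, with versions not given in the sources used here. UMIs were recovered from the values: each value gave a whole count within 0.01. Libraries held 3 time points, 1 each, and no cell was tied to a time point.

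Members, gene lists and comparisons were chosen with earlier results of these data known. Classes other than members were set by markers (stroma-type 8237 cells, endothelial-type 1802, other granulosa-type 9799). 1 member was also endothelial-type. UMIs were summed per class and barcode set. Poisson, conditional binomial and Clopper-Pearson 95% intervals cover counting error only, as do the log-normal intervals of Mantel-Haenszel ratios pooled over sets. A class with 0 UMIs took 3. The genes named were those of the lists, the 15 higher and 15 lower called genes of largest least fold, and the 12 of largest fold in each direction between sets with a level of at least 1 in the higher set. Grb14, Pik3r1, Mmp11 and Tpm1 were named after their values were seen. Some of the genes in these counts are not reported here. No doublet caller was run. Cells over 2 times the median depth were left out as an alternative. The counting code was run on simulated counts with known changes. Those had no selection of cells and no free RNA, so they check the code and not the calls in these data. Alternatives numbered 14, of which 5 were added after the data were seen. Sums used Python 3.11.15, NumPy 2.4.6 and SciPy 1.17.1.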

Additional observations from a re-analysis of the deposited data

Results flagged for a closer look

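Ddit4, a stress-induced inhibitor of mTOR signaling, differed in opposite directions between sets 3 and 2. The ratio of set 3 to set 2 was 0.459 in members and 2.53 in other granulosa-type cells, and this difference was not tested. Its level was 0.286, 0.868 and 0.399 in members and 1.07, 1.07 and 0.749 in endothelial-type cells, so in each set the members lay below the endothelial-type level.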

How the results depend on the processing

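Of 106 values computed under 14 alternatives, 69 were labelled as near the first value, 37 as moved and 0 as reversed. Most of these values are cell shares or counts of called genes. Those have no direction, so the last label could not apply to them. The first label allowed wide changes, such as 45 to 66 higher genes without set 2, and is no measure of stability. The share of members in the table (4.85%) became 1.73% with at least 4 rule genes, 10.6% with at least 2, 4.34% with Dcn at 0, 4.11% and 3.32% with at least 3 and 4 general granulosa markers, 2.75% after thinning to 3000 UMIs and 2.25% without Acta2, Tagln and Myh11. Genes higher than in other granulosa-type cells (45) numbered 81 with at least 4 rule genes, 29 with at least 2, 93 after thinning, 88 with a floor of 0.2, 28 with at least 4 general granulosa markers and 103 without set 3. Lower genes (32) numbered 54, 14 and 55 with at least 4 rule genes, at least 2 and thinning, and 66, 51 and 85 without sets 1, 2 and 3. Requiring fewer sets raises these counts by construction, and applying the rule again to cells thinned to 3000 UMIs gave 790 members. For the other changes the cause was not tested. Genes higher in set 2 than set 1 (139) numbered 211 with the lower floor, and lower ones (81) numbered 135 after thinning, 173 with the lower floor and 151 without the contractile genes. Genes higher in set 3 than set 2 (104) numbered 219 with at least 4 rule genes, 162 with at least 2, 430 after thinning, 303 with the lower floor and 203 without the contractile genes. Lower ones (183) numbered 366 after thinning and 337 with the lower floor. The pooled Fshr ratio (0.624) was 0.545 with at least 4 rule genes, 0.561 without cells over 2 times the median depth and 0.492 after thinning. It was closer to 1 at 0.652 and 0.667 with at least 3 and 4 general granulosa markers, and at 0.674 without Acta2, Tagln and Myh11. The Fosl2 ratio (0.866) was 0.924 as a mean over cells and 0.824 with at least 4 general granulosa markers. The median ratio of the 10 general granulosa markers (0.409) was 0.255 with at least 4 rule genes and 0.207 after thinning. It was closer to 1 at 0.494 with at least 2 rule genes. With members held to at least 4 of these markers, as the comparison cells were, it was 0.518. No paired analysis was possible because the labels give no replicate numbers, each time point had 1 library and cells were not tied to time points. Ratios of members to other granulosa-type cells were taken within each barcode set.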

Other observations

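Genes of sterol synthesis, a list of 21 chosen after its values were seen, were in part lower in members. Of the 21, 11 were compared, 0 were higher and 5 were lower, among them Fdps, Sqle, Cyp51 and Dhcr7, with median ratios of 0.317, 0.459 and 0.435. Over all genes compared, 1.08% were lower and the median ratios were 0.995, 1.09 and 1.00. Fdps, which makes farnesyl diphosphate, was at 0.765, 0.877 and 1.41 in members and 3.08, 1.91 and 4.34 in the comparison cells. For Fdps the members lay below the endothelial-type level of 1.67, 1.49 and 2.06.

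Of 15 actin and myosin cytoskeleton genes, also chosen after their values were seen, 10 were compared, 3 were higher (Acta2, Cald1 and Tpm1) and 0 were lower, against 1.52% higher over all genes compared. Tpm1, which stabilizes actin filaments, was at 5.74, 7.85 and 5.29 in members, 1.94, 3.52 and 2.48 in the comparison cells and 12.1, 10.4 and 15.5 in stroma-type cells.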
